A study of Caenorhabditis elegans with 2 samples.

Results

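The 42 genes described here are pan-neuronal and synaptic genes of C. elegans, a listed set of the machinery that neurons use to build axons, carry cargo along them and release transmitter. Each matched 1 of the 19973 protein-coding genes on the nuclear chromosomes by its gene name. A peak was counted for a gene when its summit, the position of highest enrichment, lay in the gene body or up to 1000 bp upstream of a transcript's 5' end. By this rule 12 of the 42 genes held 21 of the 2415 peaks in the main peak list. The peaks came from chromatin immunoprecipitation and sequencing (ChIP-seq), which recovers the DNA bound by a tagged protein. The protein was T22C8.4, which the reference annotation describes by a C2H2-type zinc finger domain, carried as a fusion with TY1, EGFP and 3xFLAG tags on the transgene wgIs785 in strain OP785. This strain also carries the unc-119 allele tm4063 and, on the transgene, unc-119(+). Whole midembryonic animals obtained by egg bleaching, with a labelled age of 2 hours, were used for 2 biological replicates and the replicates form 1 group. The sample descriptions state an anti-GFP antibody, while the antibody field of the labels names T22C8.4.

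Synaptic vesicles fuse with the plasma membrane when SNARE proteins on vesicle and target membrane pair, and priming and active zone proteins decide where and when this happens. Kinesin motors bring vesicle precursors from the cell body along microtubules, and endocytic adaptors recover vesicle membrane after release. Many C. elegans genes of this machinery were found as unc (uncoordinated) mutants, because a worm whose neurons release too little transmitter or whose axons are misplaced moves poorly. Most of them are transcribed in nearly every neuron. The samples were whole animals, so a site bound in few cells and a site bound weakly in many cells cannot be told apart.

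The DNA around 8 summits is printed first to show which of them hold the words described below. Each run is 101 bases of the ce11 reference (WBcel235, RefSeq), centred on the summit and written 5' to 3' along the gene's own strand. Capitals mark ATCGAT and ATTGAT, searched on both strands, and GGTTCGA, the start of the internal B box of tRNA genes, also searched on both strands. No marked words overlapped each other. The rimb-1 and unc-33 runs were added after the values were seen.
unc-16, promoter, chrIII:9546146-9546246, plus strand: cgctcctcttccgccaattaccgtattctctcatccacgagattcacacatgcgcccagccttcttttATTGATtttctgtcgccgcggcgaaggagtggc
snb-1, promoter, chrV:6656884-6656984, minus strand: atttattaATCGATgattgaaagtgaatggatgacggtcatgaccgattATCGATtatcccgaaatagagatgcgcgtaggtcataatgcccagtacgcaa
syd-2, promoter, chrX:10555616-10555716, minus strand: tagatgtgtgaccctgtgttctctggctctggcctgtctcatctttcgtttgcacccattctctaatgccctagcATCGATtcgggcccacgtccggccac
unc-18, promoter, chrX:7682469-7682569, plus strand: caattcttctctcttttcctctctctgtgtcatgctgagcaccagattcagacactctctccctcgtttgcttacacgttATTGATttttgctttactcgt
ida-1, promoter, chrIII:5755344-5755444, plus strand: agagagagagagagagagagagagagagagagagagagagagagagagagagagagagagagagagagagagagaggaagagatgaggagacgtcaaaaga
unc-104, intron, chrII:7001589-7001689, plus strand: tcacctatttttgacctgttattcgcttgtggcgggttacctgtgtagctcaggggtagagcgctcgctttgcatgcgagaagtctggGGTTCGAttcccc
rimb-1, intron, chrIII:1805657-1805757, plus strand: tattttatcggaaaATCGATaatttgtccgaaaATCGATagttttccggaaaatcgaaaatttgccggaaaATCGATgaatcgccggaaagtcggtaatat
unc-33, intron, chrIV:3524789-3524889, plus strand: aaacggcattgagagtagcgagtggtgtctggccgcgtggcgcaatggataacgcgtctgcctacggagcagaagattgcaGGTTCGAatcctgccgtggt
ATCGAT or ATTGAT stood in 5 of these 8 runs. The snb-1 run holds ATCGAT 2 times, and the rimb-1 run holds it 3 times. The ida-1 run holds neither word and is mostly a GA repeat. The unc-104 and unc-33 runs hold GGTTCGA instead.

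A main-list peak was present at 28.6% of the 42 genes, compared with 9.10% of all protein-coding genes (1817 of 19973) under the same rule. These genes are long, however, with a median length of 8516 bp against 2027 bp for all protein-coding genes, and a longer body offers more places for a summit. Of all protein-coding genes under 2500 bp, 5.46% held a peak, and the share was 9.95% from 2500 to under 5000 bp, 18.9% from 5000 to under 10000 bp, 26.5% from 10000 to under 20000 bp and 28.3% from 20000 bp. The neuronal genes with a peak numbered 1 of 2, 1 of 6, 5 of 18, 4 of 9 and 1 of 7 in the same classes. The class shares weighted by the number of neuronal genes in each class come to 8.48 genes, beside the 12 observed. The list was chosen with results of these data known, so these counts are a description without a test. Counted by length of DNA searched, the 42 genes held 37.1 peaks per Mb and all protein-coding genes 28.6 peaks per Mb. Leaving out rimb-1, chosen after its peaks were seen, the density at the neuronal genes was 25.7 peaks per Mb. The value for all protein-coding genes keeps its own genes with many peaks, so the 25.7 cannot be set against the 28.6.

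**Figure D1:**
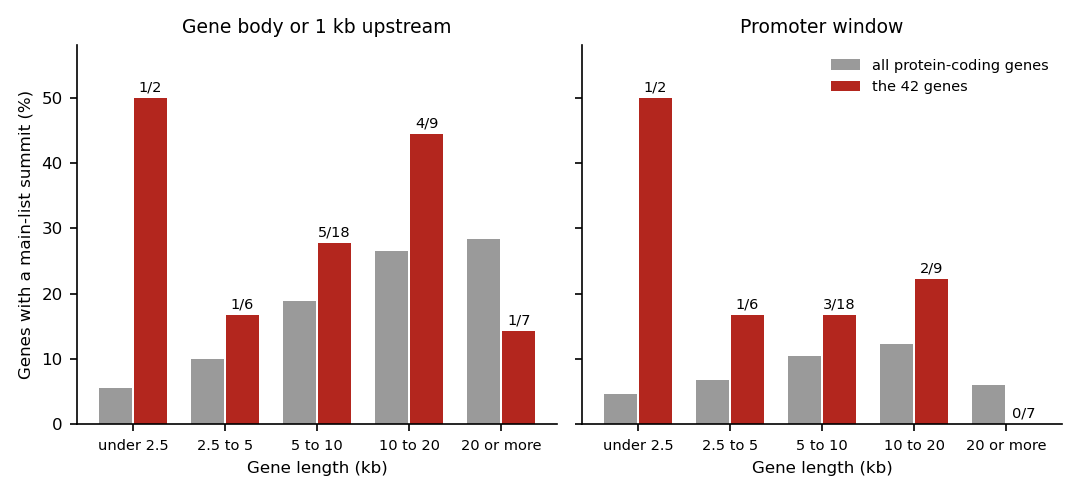
Share of genes with a main-list summit (%) by class of gene length (kb), for all protein-coding genes (grey) and the 42 neuronal genes (red), with counts above the red bars. The grey share under the body rule (left) climbs from 5.46% to 28.3% with length, the promoter share (right) does not climb to the last class, and the 7 longest neuronal genes hold 1 peaked gene and no promoter summit.

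The promoter window, which covers the last 1000 bp before a transcript's 5' end and the first 200 bp after it, has the same size at every 5' end, so a gene with several 5' ends is searched over more DNA. A summit lay there at 7 of the 42 genes (16.7%) and at 6.08% of all protein-coding genes. The count was 4 genes in replicate 2's own list and 12 genes when the window was extended to 2000 bp upstream. A wider window takes in more summits at any gene. The shares of all protein-coding genes at these settings are not given here, so neither count can be set against the 6.08%. Over the 5 length classes, in rising order, the promoter share of all protein-coding genes was 4.61%, 6.77%, 10.4%, 12.2% and 6.06%. The neuronal genes with a promoter summit numbered 1 of 2, 1 of 6, 3 of 18, 2 of 9 and 0 of 7 in those classes, and the weighted class shares come to 3.89 genes. All 7 summits lay upstream of the gene, 10 to 904 bp from the nearest 5' end. The gene itself owned the nearest protein-coding 5' end in 7 of 7 cases, and none of the 7 summits fell in the promoter window of another protein-coding gene. Noncoding genes are not counted there, and the summits of syd-2, unc-16 and ida-1 each lay within a noncoding RNA gene. Over all protein-coding genes, 75.8% of 1344 gene and promoter-summit pairs were nearest to the gene itself, and 57.5% were in no other promoter window.

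**Figure D2:**
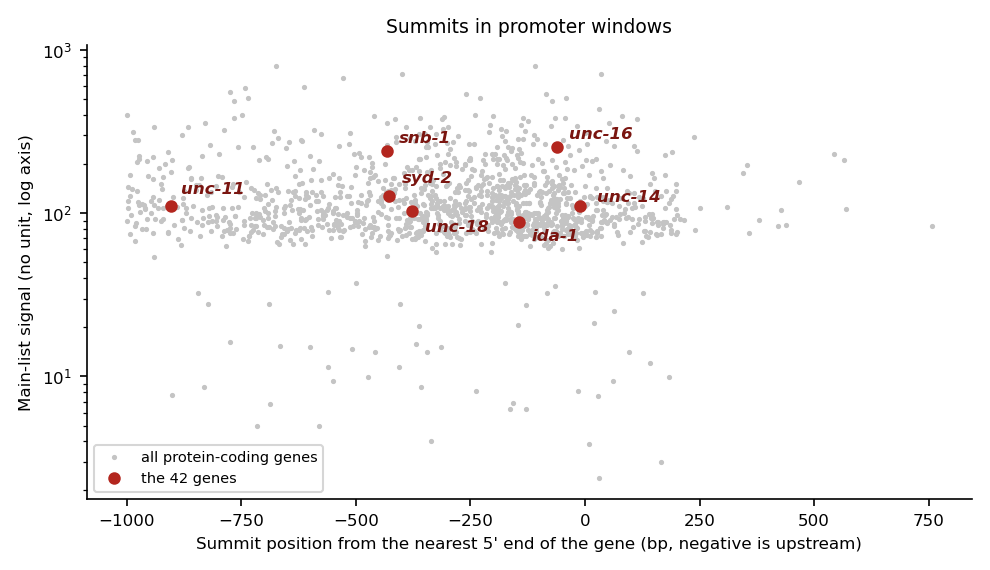
Main-list signal (log axis) against the summit's position from the nearest 5' end (bp) for every gene and promoter-summit pair of protein-coding genes (grey) and for the 42 neuronal genes (red, named). The 7 neuronal summits lie 10 to 904 bp upstream with signals from 88.0 to 254. Grey points beyond 200 bp downstream belong to genes with another 5' end that takes the summit in.

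Values below are the authors' signal values, which their peak caller gave each peak. They have no unit and are not scaled between lists, so they rank peaks within a list only. The 21 peaks had signals from 79.7 to 254 with a median of 120, and the median of all 2415 main-list peaks was 105. Of the 21, 14 were above that median, and the strongest ranked 233. Each replicate also had its own thresholded list, with 1629 peaks in replicate 1 and 1319 in replicate 2. An overlap of at least 1 bp with a peak in both lists was found for 10 of 21 peaks, or 47.6% (exact 95% binomial interval 25.7% to 70.2%, covering the counting of peaks only). The share over the main list was 42.3%. Replicate 1 alone listed 6 of the others, replicate 2 alone listed 2, and neither listed 3. In the separate lists, 10 of the 42 genes (23.8%) had a summit in replicate 1, where 6.43% of protein-coding genes did. In replicate 2, 8 of the 42 had one, where 5.13% of protein-coding genes did. The conservative list, called on both replicates together, kept all 12 genes, beside 8.79% of protein-coding genes.

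**Figure D3:**
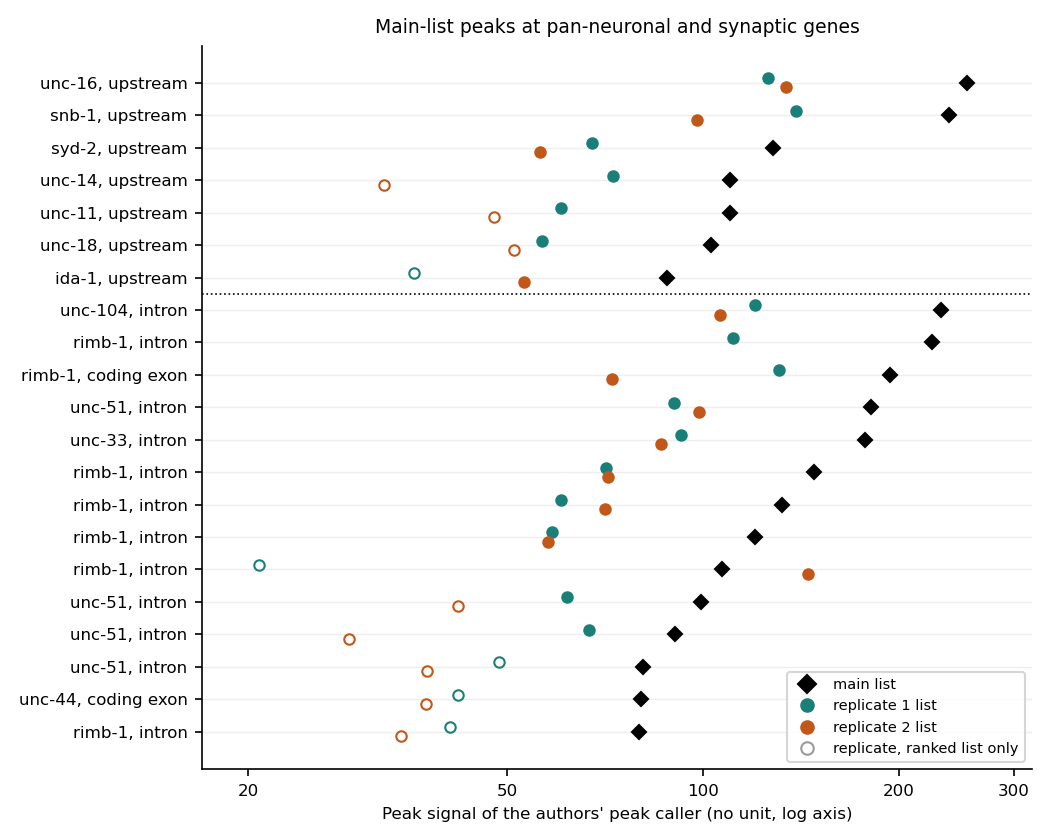
Signal (log axis) of each of the 21 main-list peaks, with the overlapping peak of replicate 1 (green) and replicate 2 (orange). Filled circles are in the replicate's thresholded list and open circles only in its ranked list, and the dotted line divides the 7 promoter summits (above) from the 14 others. The strongest peaks have 2 filled circles, with the rimb-1 intron peak at 225 as an exception, and most peaks near 80 to 110 have 1 or none.

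Among the 9 genes of SNARE-driven fusion, 2 had a peak and both peaks were in the promoter. These 9 genes were 940 to 31332 bp long. Over their length classes, from 5.46% to 28.3% of all protein-coding genes held a peak. Whether this or any role group below differs from other genes of its length was not tested. The gene snb-1 (WBGene00004897, chromosome V, 6655562 to 6656501, minus strand) encodes synaptobrevin, the SNARE carried by synaptic vesicles. Its summit lay 433 bp upstream, with a signal of 239 in the main list, 139 in replicate 1 and 97.7 in replicate 2. It ranked 262 of 2415, and both replicates listed it. The gene unc-18 (WBGene00006757, chromosome X, 7682896 to 7686037, plus strand) encodes the Sec1 family protein that binds syntaxin. Its summit lay 377 bp upstream with a signal of 103, and 56.5 in replicate 1. Replicate 2 held it only in its ranked list, with a signal of 51.3 and an IDR score of 828. IDR, the irreproducible discovery rate, measures how well a peak repeats between rankings, and the lowest score in the main list was 830. The unc-18 peak was thus in replicate 1's list and not in that of replicate 2. The lowest score in replicate 2's own list is not given here.

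The other 7 fusion genes had no main-list peak. Of these, ric-4 (SNAP-25) had the highest score in the pooled ranked list, 590 at a signal of 62.7. Syntaxin, encoded by unc-64, followed with 314, and aex-3, which encodes an exchange factor for RAB-3, with 255. The vesicle GTPase gene rab-3 reached 125 and the priming factor gene unc-13 reached 27, although unc-13 spans 31332 bp. No ranked entry at all lay at snt-1, which encodes synaptotagmin, or at sng-1, which encodes synaptogyrin. The fusion genes therefore ranged from a peak found in both replicates at snb-1 to no entry.

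Active zone genes made up 7 of the 42, and 2 of them, syd-2 and rimb-1, had peaks. These 7 genes were 6134 to 39308 bp long. In their length classes, from 18.9% to 28.3% of all protein-coding genes held a peak. The gene syd-2 (WBGene00006364, chromosome X, 10549106 to 10555239, minus strand) encodes liprin-alpha, an organiser of presynaptic assembly. Its summit lay 427 bp upstream with a signal of 128 in the main list, 67.6 in replicate 1 and 56.2 in replicate 2, and both replicates listed it. The summit also lay within the noncoding RNA gene F59F5.9.

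The gene rimb-1 (WBGene00006513, chromosome III, 1788333 to 1807147, plus strand) encodes the RIM-binding protein, which links calcium channels to the release site. It held 7 of the 21 peaks, all inside the gene and none in the promoter window. Of all protein-coding genes, 8 held 7 or more peaks. The rimb-1 summits spanned 12959 bp, with gaps of 200 to 5876 bp between neighbours, and 6 were in introns and 1 in a coding exon. The strongest, at position 1805707 in an intron of 694 bp, had a signal of 225 in the main list and 111 in replicate 1, and no entry of replicate 2 overlapped it. The peak from 1805762 to 1805939 overlapped the end of this peak at 1805787 and had its summit 200 bp further on, at 1805907. There replicate 2 had its strongest rimb-1 value, 145, while replicate 1 had only a ranked entry of 20.8, and the main-list signal was 107. These adjoining peaks were thus listed by a different replicate each.

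The coding exon peak of rimb-1 at 1806583 had a signal of 194, with 131 in replicate 1 and 72.5 in replicate 2. Intron peaks at 1794291, 1793624 and 1802032 had main-list signals of 148, 132 and 120. Replicate 1 gave them 71.0, 60.6 and 58.7, and replicate 2 gave them 71.5, 70.6 and 57.8. The weakest, at 1796156 with 79.7, was in neither replicate's list, with ranked entries of 40.8 and 34.4. In all, 4 of the 7 peaks were in both lists. The nearest protein-coding 5' end was that of clp-4 for the 3 summits from 1805707 onward, and of rimb-1 for the other 4.

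The remaining 5 active zone genes had no main-list peak. The long gene cla-1, which encodes Clarinet, spans 39308 bp and had 23 ranked entries, the best with a score of 592 and a signal of 79.4 in a coding exon. The kinase gene sad-1 reached 268, the RIM gene unc-10 reached 236, syd-1 reached 132 and elks-1 reached 108. The best cla-1 entry scored 739 in replicate 2's own ranked list and 69 in that of replicate 1. These entries need not be the same site.

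**Figure D4:**
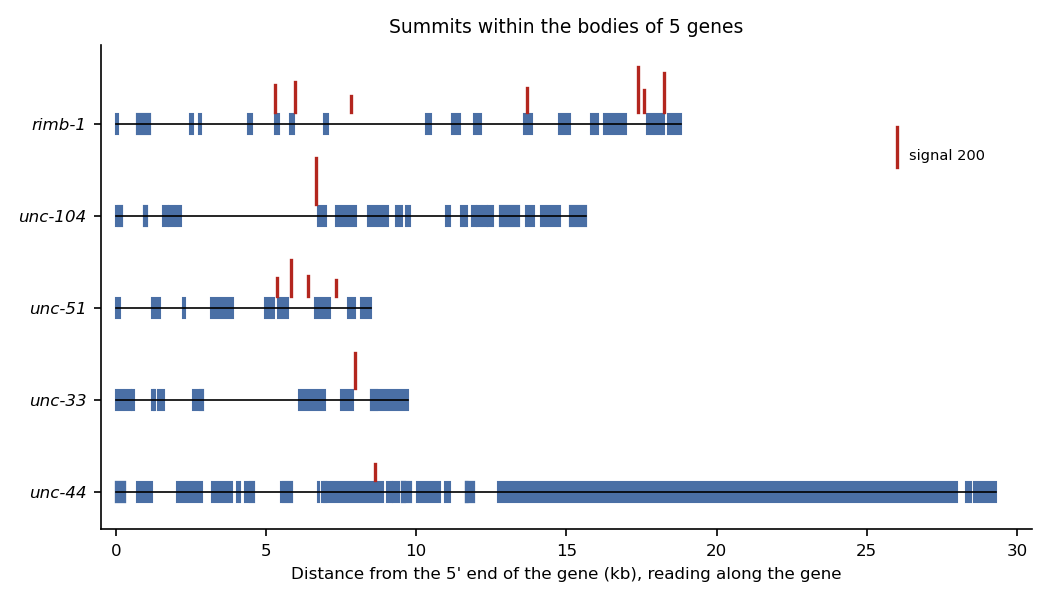
Exons of all annotated transcripts (blue) and main-list summits (red lines, height proportional to signal) in the 5 genes with summits outside promoters, by distance from the gene's 5' end (kb). rimb-1 has 7 summits along 12959 bp, unc-51 has 4 within 1973 bp, and unc-104, unc-33 and unc-44 have 1 each.

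The 4 genes for vesicle endocytosis were 3151 to 10962 bp long. In their length classes, 9.95%, 18.9% and 26.5% of all protein-coding genes held a peak. Of the 4, unc-11 had a peak. It encodes the clathrin adaptor AP180, which sorts synaptobrevin back into vesicles (WBGene00006751, chromosome I, 3798396 to 3805739, minus strand). Its summit was the farthest of the 7 promoter summits, 904 bp upstream, with a signal of 110 in the main list and 60.6 in replicate 1. Replicate 2 had a ranked entry of 47.8 with a score of 252. Without this distant summit, as under an upstream limit of 500 bp, 11 genes remain. The synaptojanin gene unc-26 had a best score of 572, the gene ehs-1 (the Eps15 homologue) had 140 and unc-57, which encodes endophilin, had 27.

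The 6 genes for dense core vesicles and neuropeptide processing were 3403 to 18749 bp long. In the length classes they fall in, 9.95% and 26.5% of all protein-coding genes held a peak. Among the 6, ida-1 had a peak. It encodes a protein tyrosine phosphatase-like protein of dense core vesicle membranes (WBGene00002048, chromosome III, 5755539 to 5765816, plus strand). Its summit lay 145 bp upstream, within the noncoding RNA gene B0244.14 on the other strand. This peak had the lowest signal of the 7 promoter summits, 88.0. Replicate 2 listed it at 53.0, and replicate 1 had only a ranked entry with a score of 328. It was the only promoter peak of the set that replicate 1 did not list and the only one with neither ATCGAT nor ATTGAT near its summit. The other 5 genes had no peak. Their best scores were 297 at ric-7, 201 at the proprotein convertase gene egl-3, 133 at ric-19, 91 at unc-31 (CAPS) and 27 at the carboxypeptidase gene egl-21. At egl-21 the best entries in the separate ranked lists of the replicates scored 798 and 598, both above its best pooled score. The best entry was taken from each list on its own, so these need not be the same site.

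Transport, cytoskeleton and outgrowth genes had the most peaked members, 6 of 9, with 9 peaks. These 9 genes are long, from 5633 to 32440 bp. Of all protein-coding genes, 18.9% from 5000 to under 10000 bp held a peak, 26.5% from 10000 to under 20000 bp and 28.3% from 20000 bp. Whether this role group differs from other genes of its length was not tested. The gene unc-16 (WBGene00006755, chromosome III, 9546258 to 9557450, plus strand) encodes the JIP3 adaptor, which ties cargo to kinesin. It had the strongest peak of the set, 62 bp upstream, at 254 in the main list, 126 in replicate 1 and 134 in replicate 2. The summit also lay within the noncoding RNA gene ZK1098.13 on the other strand. The gene unc-14 (WBGene00006753, chromosome I, 7122614 to 7128246, minus strand) encodes a RUN domain protein that works with UNC-16 and UNC-51. Its summit, 10 bp upstream, was the closest to a 5' end, with 110 in the main list and 72.7 in replicate 1, and a ranked entry of 32.3 with a score of 107 in replicate 2. Replicate 2 therefore listed the unc-16 peak but not the unc-14 peak.

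The kinesin-3 motor that carries synaptic vesicle precursors is encoded by unc-104 (WBGene00006831, chromosome II, 6994987 to 7010625, plus strand). Its peak had a signal of 232, with 120 in replicate 1 and 106 in replicate 2, and lay in an intron of 4567 bp, 82 bp from the end of that intron. The summit fell within WBGene00023260, which the RefSeq annotation calls a tRNA pseudogene. The gene unc-33 (WBGene00006769, chromosome IV, 3516886 to 3526602, plus strand) encodes a CRMP protein that organises neuronal microtubules. Its peak, at 177 in the main list, 92.5 in replicate 1 and 86.1 in replicate 2, lay in an intron of 610 bp and within the tRNA gene WBGene00023115. Over the whole main list, 213 summits lay within 150 bp of an annotated tRNA gene. Of these, 48.8% held GGTTCGA within 50 bp of the summit, while 4.69% held ATCGAT or ATTGAT. In both genes the peak was thus at a tRNA-type sequence on the same strand as its host and not at the host's own promoter.

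The kinase gene unc-51 (WBGene00006786, chromosome V, 19995986 to 20004485, minus strand), the Atg1 homologue needed for axon outgrowth, held 4 intron peaks within 1973 bp. The strongest had a signal of 181 in the main list, 90.3 in replicate 1 and 98.6 in replicate 2. The next, at 99.2 and 90.6, were listed by replicate 1 at 61.9 and 66.9, and replicate 2 had ranked entries of 42.1 and 28.6. The second of these was not in the conservative list. The weakest, at 80.9, was in neither replicate's list. The nearest protein-coding 5' end to all 4 was that of Y60A3A.25. In the separate list of replicate 2, unc-51 kept 1 peak, and in that of replicate 1 it kept 3.

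The gene unc-44 (WBGene00006780, chromosome IV, 5975557 to 6004857, plus strand) encodes the giant ankyrin of axons and spans 29301 bp. It had 34 ranked entries but 1 main-list peak, in a coding exon, with a signal of 80.4. Neither replicate listed it, and the overlapping ranked entries scored 603 in replicate 1 and 385 in replicate 2. Of the other transport and outgrowth genes, unc-76 (FEZ1) had an intron entry with a score of 799 and a signal of 67.0, and unc-73, the Trio exchange factor, had 565. The best entry of unc-119 had a score of 197. The strain's transgene also carries unc-119(+), and reads of that copy and of the chromosomal one cannot be told apart in a peak list.

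None of the 3 adhesion and matrix genes, the 2 channel and junction genes or the 2 remaining genes had a peak. These genes were 5648 to 52607 bp long. In their length classes, from 18.9% to 28.3% of all protein-coding genes held a peak. The innexin gene unc-7 came closest of all 30 genes without a peak, with a score of 822 and a signal of 73.8 in an intron, against the 830 needed. The calcium channel gene unc-2, the longest of the 42 at 52607 bp, had 30 ranked entries and a best score of 483. The macoilin gene maco-1 had a best score of 375 and the neurexin gene nrx-1 one of 181. The collagen gene cle-1 had 94, and the neuroligin gene nlg-1 lay between nrx-1 and cle-1. No pooled entry lay at rgef-1, which encodes a Ras exchange factor expressed throughout the nervous system. Over the 27 genes without a peak that had an entry, the best score ranged from 27 to 822 with a median of 201.

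**Figure D5:**
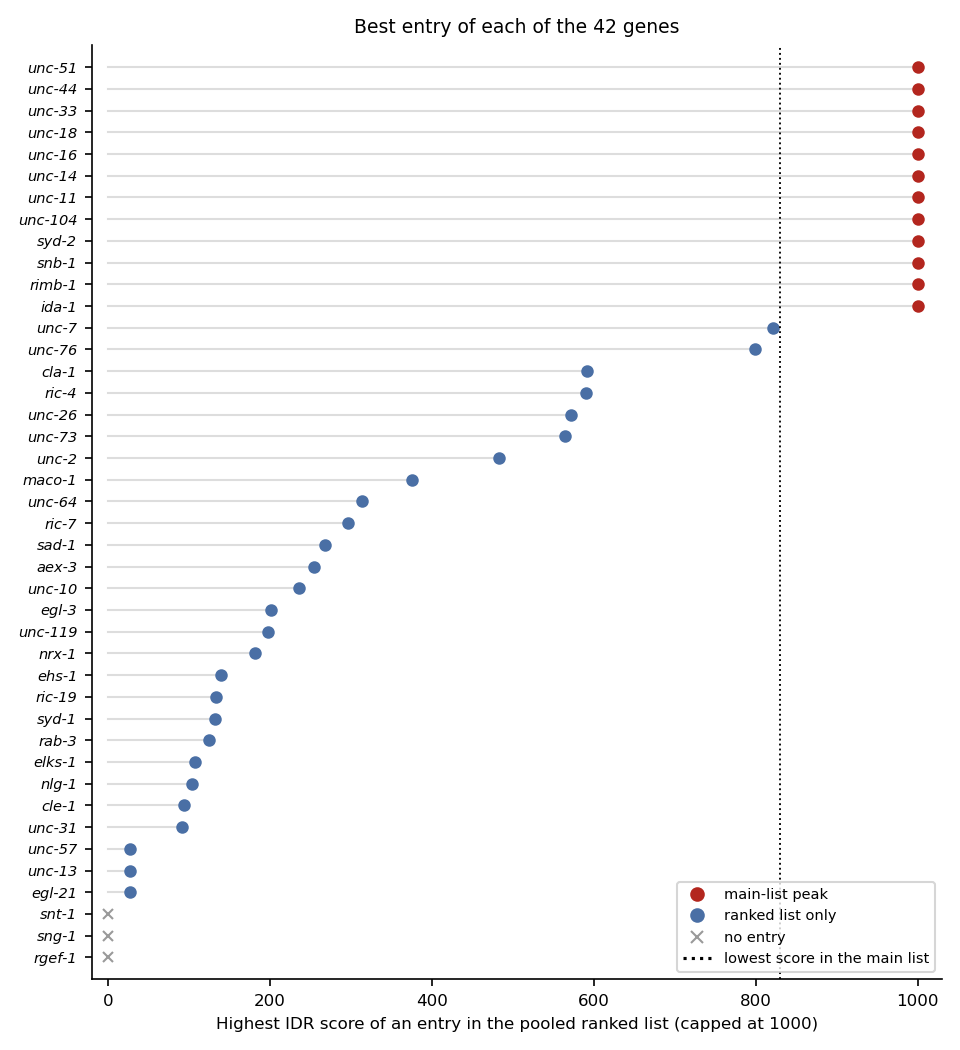
Highest IDR score of any entry of the pooled ranked list at each of the 42 genes, with the lowest score of the main list, 830, as a dotted line. The 12 genes with a main-list peak are at the cap of 1000, unc-7 and unc-76 lie just under the line at 822 and 799, and snt-1, sng-1 and rgef-1 have no entry.

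ATCGAT or ATTGAT stood within 50 bp of the summit in 18 of the 21 peaks, or 85.7% (exact 95% interval 63.7% to 97.0%). The share was 66.3% over all main-list peaks and 72.3% over those away from tRNA genes. Over 992797 windows of 101 bases in the nuclear genome it was 13.2%. These words were known from an earlier look at the same data, so the share describes the peaks and supports nothing. The 3 peaks without a word are those of ida-1, unc-104 and unc-33. The genes rimb-1 and unc-51 together hold 11 of the 18. Their windows held 17 and 6 copies, and every one of those 11 windows had at least 1. At the other 10 peaks the share was 70.0% (34.8% to 93.3%). ATTGAT was present at 57.1% of the 21 peaks and at 34.3% of the main list, and ATCGAT at 52.4% and 50.4%. Most of the windows with ATTGAT were in rimb-1 and unc-51, and every unc-51 window held it. Among the other 10 peaks, ATTGAT stood only at those of unc-14, unc-16, unc-18 and unc-44. The 57.1% therefore rests largely on rimb-1 and unc-51, and whether ATTGAT is more frequent at neuronal genes was not tested.

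Lower-case letters in the RefSeq genome, which mark repeated or low-complexity DNA, filled over 50% of the 101-base window at 9 of the 21 peaks (42.9%) and at 37.4% of main-list peaks. Of these 9, 4 were in unc-51, 4 in rimb-1 and 1 at ida-1. The unc-51 windows were masked over 73.3% to 100% of their bases. Away from rimb-1 and unc-51, 1 of 10 peaks was of this kind. Position along the chromosome differed in the same way. The genes rimb-1 and unc-51 lie near chromosome ends, at 13.1% and 95.6% of the length of their chromosomes. Of the 21 peaks, 15 lay in the outer parts when each chromosome is cut into 3 equal parts, where 80.2% of all main-list peaks lay. Without these genes the count was 4 of 10, while 21 of the 42 genes lay in the outer parts. How far repeats or chromosome position bear on the peaks was not tested.

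Other sets of neuronal genes were counted in the same way. Of 18 genes for making, loading or clearing transmitters, 3 had a peak (16.7%), with a median gene length of 4738 bp. The vesicular monoamine transporter gene cat-1 had a signal of 360 in an intron, and both replicates listed it. The serotonin transporter gene mod-5 had 3 peaks with signals from 13.3 to 77.0 at its 3' end, with summits from 3034979 to 3035389. Neither replicate listed any of them. The gene unc-25, which encodes glutamate decarboxylase, had 86.5 in its promoter window, listed by replicate 1 only. Of 16 terminal selector genes, the transcription factors that fix a neuron's final identity, 0 had a peak. Their median gene length was 4880 bp. Of 14 axon guidance genes that matched by name, 4 had a peak (28.6%), including 8 at the plexin gene plx-1, with a median gene length of 14114 bp. Of 102 neuropeptide genes, 3 had a peak (2.94%), with a median gene length of 1018 bp. The share among the 42 genes, 28.6%, equalled that of the axon guidance genes and stood beside 9.10% of all protein-coding genes. None of these shares is adjusted for gene length, which differs between the sets.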

How the data were processed

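Genes were the 42 listed pan-neuronal and synaptic genes. The genes, role groups, other lists and words were chosen with earlier results of these data known, so no list was tested. The authors deposited ranked and thresholded ChIP-seq peak lists for each replicate and for both replicates together, on ce11 per the labels. The aligner and the peak caller are not named in these sources (not given in the sources used here), and the control alignment was not used here. The deposited signal values are those of the authors' peak caller, and the deposited score comes from the IDR and is capped at 1000. The deposited lists also hold the -log10 of the global IDR, used only to describe ranked entries. Peak lists hold no read counts, so depth is unknown. Chromatin was sonicated to 200 to 800 bp per the labels.

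The summit was assigned with Ensembl release 115 genes, and place was taken in the order coding exon, 5' UTR, 3' UTR, intron, upstream. The assignment was run on simulated summits planted within, upstream of and too far from known genes. This checks the code and not whether a peak belongs to a gene. Where a gene has several 5' ends, distances refer to the nearest. Words were searched within 50 bp of the summit, and GGTTCGA was added after the data were seen. Exact binomial intervals are at 95%. Each gene with a peak was named, and the others are given by role and best ranked entry. The counts were repeated with the conservative list, with the list of each replicate alone, with the stronger peaks of the main list, other upstream limits (500 and 2000 bp), the nearest 5' end, and word windows of 25 and 100 bp. Python 3.11.15, numpy 2.4.6, scipy 1.17.1 and matplotlib 3.10.9 were used.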

Additional observations from a re-analysis of the deposited data

How the results depend on the processing

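With 1 group of 2 replicates there is no test between conditions, and depth is unknown. The 12 genes with a peak stayed at 9 to 16 under the other lists and upstream limits tried, except 8 without replicate 1 and 5 with the gene body only. Promoter summits, at 7 genes, numbered 12 with 2000 bp upstream, and ranged from 4 to 6 when a replicate was left out. The promoter shares of all protein-coding genes at these settings are not given here. The 21 peaks became 12 to 16 when a replicate was left out. Replicate 2's own list gave the 4 and the 12. The limit of 2000 bp upstream added unc-57 and egl-3 as genes with a peak, and gave promoter summits also to unc-51, unc-33 and unc-44. The share in both replicates' lists was 47.6% of the 21 peaks. It was 71.4% of the 14 of them that ranked in the upper part of the main list by signal. The same share over all main-list peaks of that part is not given here. The share with ATCGAT or ATTGAT was 76.2% within 25 bp and 90.5% within 100 bp, where all main-list peaks gave 51.3% and 74.6%. Leaving out rimb-1, chosen after its peaks were seen, left 14 peaks. No paired analysis was possible because the replicates form 1 group.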
